A study of Mus musculus with 4 samples.

Results

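Astrocytes of the dorsal ventricular-subventricular zone (dorsal V-SVZ) were set against the quiescent neural stem cells (qNSCs) of the same libraries at postnatal day 12 (P12), 96 astrocytes and 483 qNSCs of 11602 cells kept. Cells were selected on their own transcripts, with x = ln(1 + 10000 × UMI / cell total), where a UMI is a counted transcript molecule. An astrocyte had S100b x above 0.5, Aqp4 x above 2 and no UMI of Foxj1, Sox10 or Mki67. A qNSC had Slc1a3 x above 1, Prom1 x above 0.6, Aqp4 x up to 1 and no UMI of Egfr, Foxj1 or Mki67. P12 replicate 1 held 44 astrocytes and 342 qNSCs, and P12 replicate 2 held 52 astrocytes and 141 qNSCs.

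The dorsal V-SVZ was microdissected from wild-type OF1 mice, labelled male, at P2, P12 and P22, with a female among the P2 mice according to the methods. Viable cells were sorted after papain dissociation and sequenced with 10x 3′ version 3 chemistry, in 2 libraries at P12 and 1 each at P2 and P22. No transgene or reporter marked either class, so that both rest on the gates alone. The methods give 2 mice per age, and whether a P12 library holds 1 mouse or a pool was not settled from the labels.

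Astrocytes clear glutamate and potassium from the extracellular space, store glycogen, and supply neurons with cholesterol in lipoprotein particles. Quiescent stem cells of the V-SVZ are themselves astroglia: they share glutamate transporters and Gfap with parenchymal astrocytes, touch the ventricle with a primary cilium, and can re-enter the cell cycle. Which transcripts separate these kinds of astroglia within the same niche is the question the comparison addresses.

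Summed over cells, the classes gave 526970 and 727813 UMIs for astrocytes of replicates 1 and 2, and 3300581 and 1624371 UMIs for qNSCs. Levels are given as CPM, the UMIs of a gene per 1000000 summed UMIs of its class and library. The median astrocyte held 12174.5 and 14963.5 UMIs, against 9416 and 11575 in the median qNSC, and median mitochondrial shares were 2.83% and 2.08% in astrocytes and 1.52% and 1.64% in qNSCs. The part of depth and mitochondrial share in the results was not tested apart from the thinned sums given below. The libraries shared 8 barcodes.

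The 8 gate genes describe the selection and carry no test. Aqp4, the water channel of astrocyte endfeet, stood at 1564 and 1886 CPM in astrocytes and 56.4 and 56.0 CPM in qNSCs. S100b, a calcium-binding protein of mature astrocytes, stood at 171 and 173 CPM in astrocytes and 3.33 and 2.46 CPM in qNSCs. Slc1a3, the glutamate transporter GLAST that selected the qNSCs, was at 3342 and 3505 CPM in astrocytes and 1688 and 2029.7 CPM in qNSCs. Prom1, a protein of membrane protrusions, was at 60.7 and 49.5 CPM in astrocytes and 163 and 160.1 CPM in qNSCs. The Egfr transcript, which the qNSC gate shuts out and the astrocyte gate does not, had a UMI in 81.8% and 80.8% of astrocytes.

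Of 4 given astrocyte markers that no gate used, all were higher in astrocytes in both libraries. They were chosen with earlier results of these data known, so their values describe the class and are no independent support for it. Agt, which encodes the angiotensin precursor, stood at 55.0 and 34.3 CPM in astrocytes of replicates 1 and 2, against 0.303 and 0.616 CPM in qNSCs (log2 fold change 6.71, SE 0.63, adjusted p = 3.3e-24). The qNSC sums held 2 Agt UMIs, so that the plain ratio was 106 with a counting interval of 28.0 to 897. Hsd11b1, which regenerates active glucocorticoid from its inert form, stood at 146 and 98.9 CPM in astrocytes against 2.42 and 1.85 CPM in qNSCs (log2 fold change 5.92, SE 0.34, adjusted p = 5.1e-64). Serpinf1, a secreted serpin also called PEDF, stood at 85.4 and 55.0 CPM in astrocytes against 1.82 and 3.08 CPM in qNSCs (log2 fold change 5.06, SE 0.42, adjusted p = 9.2e-31). Lcat, the enzyme that esterifies cholesterol on lipoproteins, stood at 165 and 122 CPM in astrocytes against 10.3 and 10.5 CPM in qNSCs (log2 fold change 3.93, SE 0.24, adjusted p = 6.5e-56). For each of these genes the lower astrocyte library exceeded the higher qNSC library. Across all 9984 genes tested, 13.5% were higher and 12.5% lower in astrocytes at an adjusted p below 0.05.

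**Figure D1:**
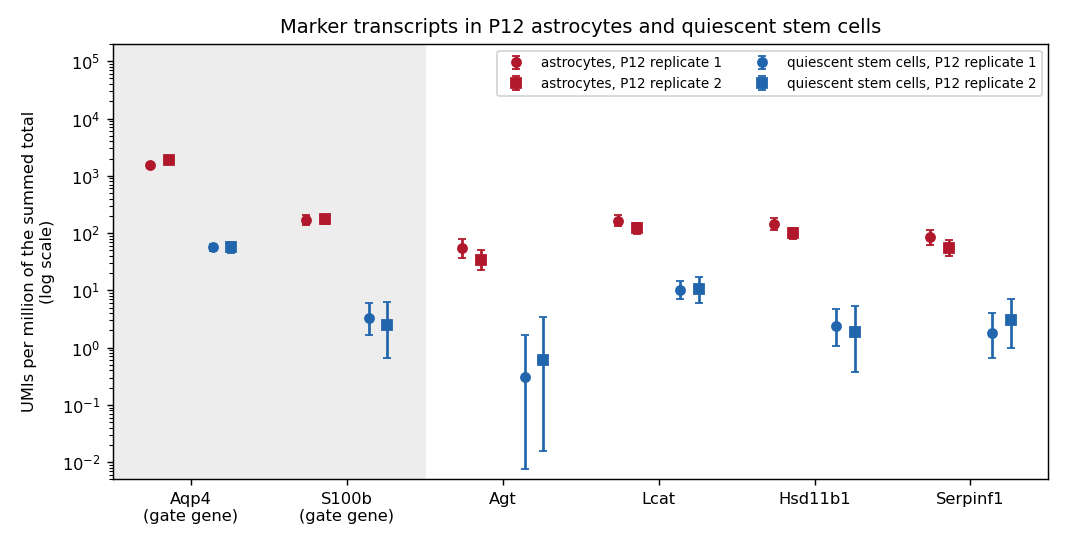
Level of 6 astrocyte markers in P12 astrocytes (red) and qNSCs (blue), in CPM on a log scale, 1 point per library with the exact 95% Poisson interval, which covers counting error only. Aqp4 and S100b (shaded) selected the cells and carry no test. In Agt, Lcat, Hsd11b1 and Serpinf1 both astrocyte points lie above both qNSC points.

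Detection of these markers differed between single astrocytes. At least 1 of the 4 had a UMI in 39 of 44 and 43 of 52 astrocytes (88.6% and 82.7%), against 45 of 342 and 21 of 141 qNSCs (13.2% and 14.9%). Exactly 2 markers were seen in 13 and 17 astrocytes, 3 in 12 and 13, and all 4 in 2 and 2, whereas 2 markers met in 1 and 1 qNSCs and no qNSC held 3. Lcat, the most widely detected, had a UMI in 68.2% and 63.5% of astrocytes against 9.36% and 10.6% of qNSCs. In 114 cells with Sox10 and Pdgfra UMIs, oligodendrocyte progenitors that should lack it, Lcat had a UMI in 1.75% at a median of 21332.5 UMIs per cell. Of these cells 112 came from replicate 1 and 2 from replicate 2, so the background in replicate 2 is not known from them. With every cell thinned to 5000 UMIs, Lcat was seen in 50% and 46.0% of astrocytes and 5.87% and 5.07% of qNSCs.

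In all, 1348 genes were higher and 1244 lower in P12 astrocytes than in qNSCs by edgeR's quasi-likelihood test with Benjamini-Hochberg adjustment, of which 756 and 580 differed at least 2-fold. At an unadjusted p below 0.05 stood 3503 genes. Of the genes called, 1336 and 1240 had the same sign within each library, and in 1235 and 1223 the classes did not overlap. DESeq2 called 440 higher and 241 lower, and edgeR without the library as a block called 681 and 475. With every cell thinned to 5000 UMIs the counts were 710 higher and 555 lower. Of the 118 genes that the naming rule gave, 29 were not called by DESeq2, among them Gabbr2, Notch2, Fxyd7, Tsc22d3, Pygm, Gys1, Thbs1, Cd44, H2-D1, Jag1, Six3, Zic5, Mcm6, Mcm7, Hmgb2 and Nrxn3. Without the block 11 lost their call, among them Fxyd7, Tsc22d3, Gys1, H2-D1, Jund, Hmgb2 and Nrxn3. The test rests on 2 libraries with 1 residual degree of freedom, and the cells of a library share its mice.

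The gene with the highest fitted fold change was Gabbr2, a subunit of the metabotropic GABA receptor, with 140.4 and 121 CPM in astrocytes and 0 UMIs in the qNSCs of either library. Its 162 astrocyte UMIs against a floor of 3 counts over the qNSC class make it at least 212-fold higher, though DESeq2 did not call it (adjusted p = 0.083). Igfbp2, which binds insulin-like growth factors, stood at 192 and 199 CPM in astrocytes against 2.73 and 1.85 CPM in qNSCs (log2 fold change 6.39, SE 0.29, adjusted p = 1.1e-104). Fndc5, the precursor of irisin, stood at 101 and 92.1 CPM in astrocytes against 1.51 and 1.85 CPM in qNSCs (log2 fold change 5.94, SE 0.39, adjusted p = 1.8e-48). The classes of both genes lay more than an order of magnitude apart in each library. Tril, a Toll-like receptor accessory protein, stood at 423 and 448 CPM in astrocytes against 16.7 and 19.7 CPM in qNSCs (log2 fold change 4.70, SE 0.19, adjusted p = 1.4e-132). Timp4, an inhibitor of matrix metalloproteinases, stood at 207 and 191 CPM in astrocytes against 9.70 and 10.5 CPM in qNSCs (log2 fold change 4.42, SE 0.23, adjusted p = 7.7e-80). Dbx2, a homeobox transcription factor, stood at 169 and 146 CPM in astrocytes against 5.76 and 13.5 CPM in qNSCs (log2 fold change 4.28, SE 0.24, adjusted p = 3.9e-65). Besides Hsd11b1 and Serpinf1, the other genes among the 15 highest were Atp13a4, Eps8, Grin3a, Etv4, Olig1, Cd38 and Igsf1, with log2 fold changes of 4.28 (Igsf1) to 5.89 (Atp13a4) and no overlap between classes. Cd38 is an NAD-consuming surface enzyme, Grin3a an NMDA receptor subunit and Etv4 an Ets family factor of the fibroblast growth factor response.

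**Figure D2:**
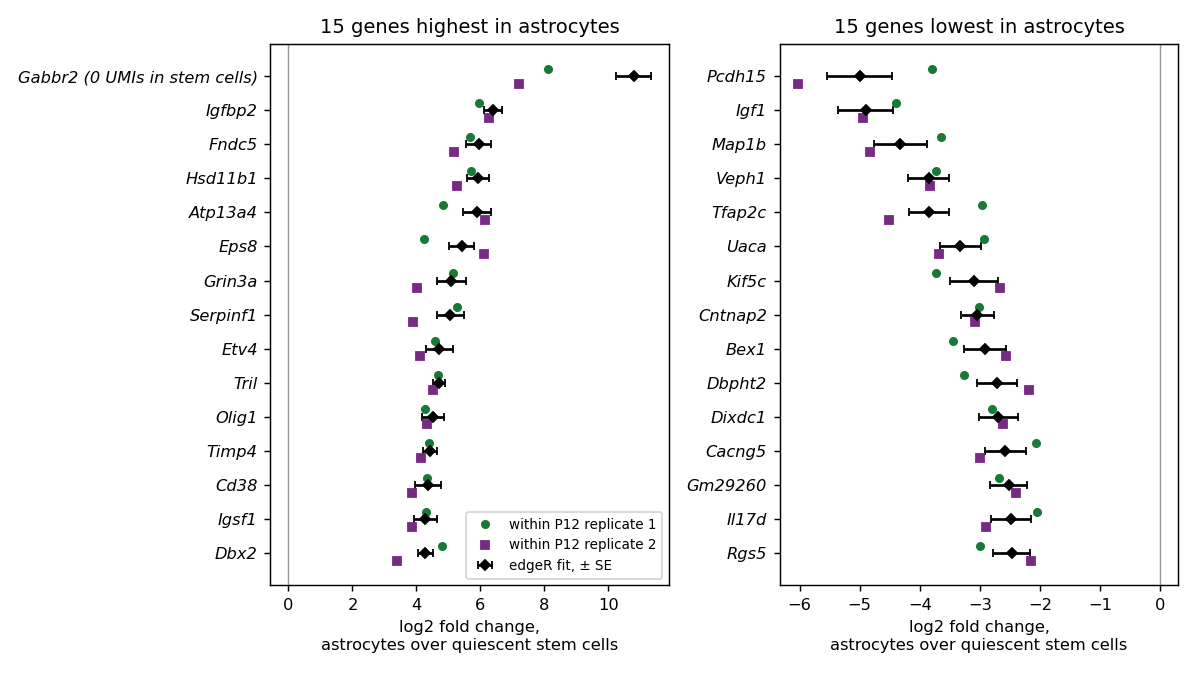
The 15 genes with the highest (left panel) and lowest (right panel) log2 fold change of P12 astrocytes over qNSCs among genes that passed the naming rule. Diamonds give the edgeR fit ± SE, with the SE taken from the F statistic. Circles and squares give the log2 ratio of CPM within replicates 1 and 2, with a prior count of 1. Every point within a library lies on the same side of 0 as its fit because the naming rule required it. The Gabbr2 fit depends on the prior count of edgeR, because qNSCs held 0 UMIs.

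Genes for cholesterol synthesis moved as a whole: all 14 tested were higher in astrocytes, with a median log2 fold change of 1.64 against -0.01 over all genes tested, and in all 14 the classes did not overlap. Of all genes tested 21.5% were higher in both astrocyte libraries than in either qNSC library, and 33.6% were lower in both. For the list counts here and below, 13.5% of all genes tested were called higher and 12.5% lower. Msmo1, a sterol demethylase, stood at 1123 and 900.0 CPM in astrocytes against 257 and 209 CPM in qNSCs (log2 fold change 2.23, SE 0.16, adjusted p = 1.2e-43). Dhcr7, which makes the last step to cholesterol, stood at 94.9 and 115 CPM in astrocytes against 25.8 and 16.6 CPM in qNSCs (log2 fold change 2.38, SE 0.23, adjusted p = 3.4e-23). Fdps, which joins isoprene units, stood at 226 and 154 CPM in astrocytes against 45.1 and 48.0 CPM in qNSCs (log2 fold change 2.14, SE 0.18, adjusted p = 4.8e-29). Lss, which closes the sterol ring, stood at 60.7 and 79.7 CPM in astrocytes against 16.4 and 23.4 CPM in qNSCs (log2 fold change 1.93, SE 0.27, adjusted p = 4.6e-11). The other 10 had log2 fold changes of 0.45 (Srebf2, the transcription factor of the pathway) to 1.74 (Cyp51, a sterol demethylase).

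Because these genes moved together, their promoters are shown where RefSeq held them, as 300 bases from 250 before to 50 after a transcription start in GRCm38.p6. Of the 14 genes 9 had such windows, 11 in all. Sequences of 2 motifs were searched on both strands: TCACNCCAC, a sterol regulatory element, and CCAAT, the box bound by NF-Y. CCAAT was present in 9 of the 11 windows, which covered all 9 genes, and in 37.4% of 32851 mouse promoters of the same length. TCACNCCAC was present in 1 of the 11 windows (Hmgcs1) and in 1.24% of all promoters. A match describes the letters only, and its absence says nothing of the factor. The promoters of Hmgcs1 (chr13:119690101-119690400, plus strand), Msmo1 (chr8:64733529-64733828, minus strand) and Lss (chr10:76531355-76531654, plus strand) are written 5′ to 3′ on the strand of the gene, with every match of either motif in capitals (ATTGG is CCAAT on the other strand).
Hmgcs1: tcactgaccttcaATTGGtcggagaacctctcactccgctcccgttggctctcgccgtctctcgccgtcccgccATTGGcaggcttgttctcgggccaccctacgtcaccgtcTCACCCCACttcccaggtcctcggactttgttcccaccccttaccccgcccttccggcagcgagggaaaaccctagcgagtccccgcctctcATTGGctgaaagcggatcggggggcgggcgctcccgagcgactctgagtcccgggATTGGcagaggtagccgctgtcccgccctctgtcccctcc
Msmo1: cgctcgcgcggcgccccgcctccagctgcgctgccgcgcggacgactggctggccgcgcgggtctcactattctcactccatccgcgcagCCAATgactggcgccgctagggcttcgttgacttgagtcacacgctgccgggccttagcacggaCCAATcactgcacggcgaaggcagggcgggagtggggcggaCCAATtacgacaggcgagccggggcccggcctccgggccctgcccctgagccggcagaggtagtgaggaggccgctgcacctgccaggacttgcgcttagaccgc
Lss: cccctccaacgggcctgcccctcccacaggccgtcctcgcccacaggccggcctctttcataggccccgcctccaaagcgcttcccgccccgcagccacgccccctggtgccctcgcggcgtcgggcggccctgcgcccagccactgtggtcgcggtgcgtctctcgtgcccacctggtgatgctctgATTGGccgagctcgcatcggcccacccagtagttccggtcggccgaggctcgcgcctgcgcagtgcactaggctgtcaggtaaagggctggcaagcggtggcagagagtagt

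Transport of the lipid was split. Of 15 lipoprotein and cholesterol transport genes tested, 6 were higher, 2 lower and 7 did not pass, with a median log2 fold change of 0.32. Vldlr, a receptor of apolipoprotein E particles, stood at 30.4 and 63.2 CPM in astrocytes against 0.303 and 0 CPM in qNSCs, where it had 1 UMI (ratio 243, counting interval 42.1 to 9765). Apoe, the main apolipoprotein of the brain, named after its values were seen, stood at 21853 and 16122 CPM in astrocytes against 12501 and 10616 CPM in qNSCs (log2 fold change 0.81, SE 0.20, adjusted p = 4.4e-04). In both genes the astrocyte libraries exceeded the qNSC libraries. Abcg1, which exports cholesterol, went the other way, with 0 UMIs in astrocytes of both libraries and 13.6 and 14.2 CPM in qNSCs, 68 UMIs in all, which makes it at least 5.78-fold lower. Abca1, the other main cholesterol exporter, stood at 207 and 360.0 CPM in astrocytes and 233 and 346 CPM in qNSCs and did not pass the test (log2 fold change 0.06).

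Uptake and turnover of transmitters were higher in 11 of 12 genes tested and lower in none, with a median log2 fold change of 0.99. Slc6a9, the glycine transporter GlyT1, stood at 72.1 and 86.6 CPM in astrocytes against 10.00 and 11.1 CPM in qNSCs (log2 fold change 3.00, SE 0.30, adjusted p = 1.1e-21). Slc7a10, an exchanger of small neutral amino acids, stood at 624 and 493 CPM in astrocytes against 137 and 113 CPM in qNSCs (log2 fold change 2.26, SE 0.15, adjusted p = 2.2e-46). Slc6a11, the GABA transporter GAT3, had a log2 fold change of 1.93. Slc1a2, the glutamate transporter GLT-1, named after its values were seen, stood at 6029 and 9175 CPM in astrocytes against 3069 and 4618 CPM in qNSCs (log2 fold change 1.09, SE 0.18, adjusted p = 3.1e-08).

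Receptors for transmitters followed. Of 16 tested, 14 were higher, 1 was lower and 1 did not pass, and the median log2 fold change of 1.65 held with Gabbr2 set to its bound. Grm3, the metabotropic glutamate receptor of mature astrocytes, stood at 201 and 313 CPM in astrocytes against 20.6 and 43.1 CPM in qNSCs (log2 fold change 3.17, SE 0.18, adjusted p = 5.3e-62). Grm5, the metabotropic receptor of young astrocytes in rodents, stood at 28.5 and 59.1 CPM in astrocytes against 0.303 and 0 CPM in qNSCs, where it had 1 UMI (ratio 228, counting interval 39.3 to 9145). Ntsr2, a neurotensin receptor, stood at 827 and 971 CPM in astrocytes against 73.3 and 114 CPM in qNSCs (log2 fold change 3.40, SE 0.16, adjusted p = 1.6e-91). The adenosine receptor Adora2b and the AMPA receptor subunit Gria2 had log2 fold changes of 2.64 and 2.21. F2r, the thrombin receptor, was lower, with 9.49 and 19.2 CPM in astrocytes against 41.2 and 42.5 CPM in qNSCs (log2 fold change -1.39, SE 0.35, adjusted p = 6.7e-04).

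Of 17 genes for water and ion handling 8 were higher, 2 lower and 7 did not pass. Slc4a4, the sodium bicarbonate cotransporter, stood at 922 and 1345 CPM in astrocytes against 112 and 167 CPM in qNSCs (log2 fold change 3.14, SE 0.16, adjusted p = 8.0e-79). Kcnk1, a potassium leak channel, stood at 197 and 251 CPM in astrocytes against 49.7 and 41.9 CPM in qNSCs (log2 fold change 2.38, SE 0.18, adjusted p = 5.0e-38). Kcnj16, a subunit that partners the potassium channel Kir4.1, had 23 UMIs in astrocytes and 1 in qNSCs (ratio 90.3, counting interval 14.7 to 3719). Kir4.1 itself, Kcnj10, stood at 209 and 299.5 CPM in astrocytes and 187 and 271 CPM in qNSCs and did not pass (log2 fold change 0.26, SE 0.15). Among the sodium pump regulators of the FXYD family, Fxyd7 was lower at 3.80 and 2.75 CPM in astrocytes against 13.3 and 14.2 CPM in qNSCs (log2 fold change -1.97, SE 0.69, adjusted p = 0.021).

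At the endfoot, 3 of 7 anchoring genes tested were higher and none was lower, among them Dmd (dystrophin, log2 fold change 1.29) and Dag1 (dystroglycan, 1.13). Both connexins of astrocyte gap junctions that passed were higher. Gjb6 (connexin 30) stood at 165 and 119.5 CPM in astrocytes against 29.4 and 52.9 CPM in qNSCs (log2 fold change 1.95, SE 0.20, adjusted p = 6.1e-21), and Gja1 (connexin 43) had a log2 fold change of 1.11. The remaining connexin tested, Gjb2, did not pass (1.33).

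Energy and amino acid metabolism differed by branch. Glycogen turnover was higher in 9 of 12 genes and lower in none (median log2 fold change 0.82). Phka1, a subunit of phosphorylase kinase, stood at 39.9 and 71.4 CPM in astrocytes against 7.57 and 14.8 CPM in qNSCs (log2 fold change 2.43, SE 0.34, adjusted p = 2.1e-11). Ppp1r3d, which brings phosphatase to glycogen, stood at 15.2 and 34.3 CPM in astrocytes against 1.51 and 4.31 CPM in qNSCs (log2 fold change 3.19, SE 0.55, adjusted p = 1.3e-07). The synthase Gys1 and the phosphorylase Pygm were higher by 1.23 and 2.59 on the log2 scale. Fatty acid oxidation was higher in 6 of 19 genes and lower in none (median 0.39). Its largest changes were in the acyl-CoA synthetases Acsbg1 (1.23) and Acsl6 (1.22), while Cpt1a, the carnitine step that admits fatty acids to mitochondria, stood at 62.6 and 76.9 CPM in astrocytes and 52.4 and 81.9 CPM in qNSCs and did not pass. Of 12 genes for serine, glycine and folate metabolism 3 were higher, among them Aldh1l1, the folate enzyme used as an astrocyte marker (1.91), and Psph, the last enzyme of serine synthesis, was lower (-0.86). Of 11 glucocorticoid genes tested 2 were higher, a share near the 13.5% over all genes tested. These were Hsd11b1, a given marker, and Tsc22d3 (0.57), a target of the receptor. The receptor Nr3c1 stood at 222 and 251 CPM in astrocytes and 219 and 255 CPM in qNSCs. Of the angiotensin system only Agt and Lnpep had enough UMIs to be tested, and Lnpep did not pass (-0.01).

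**Figure D3:**
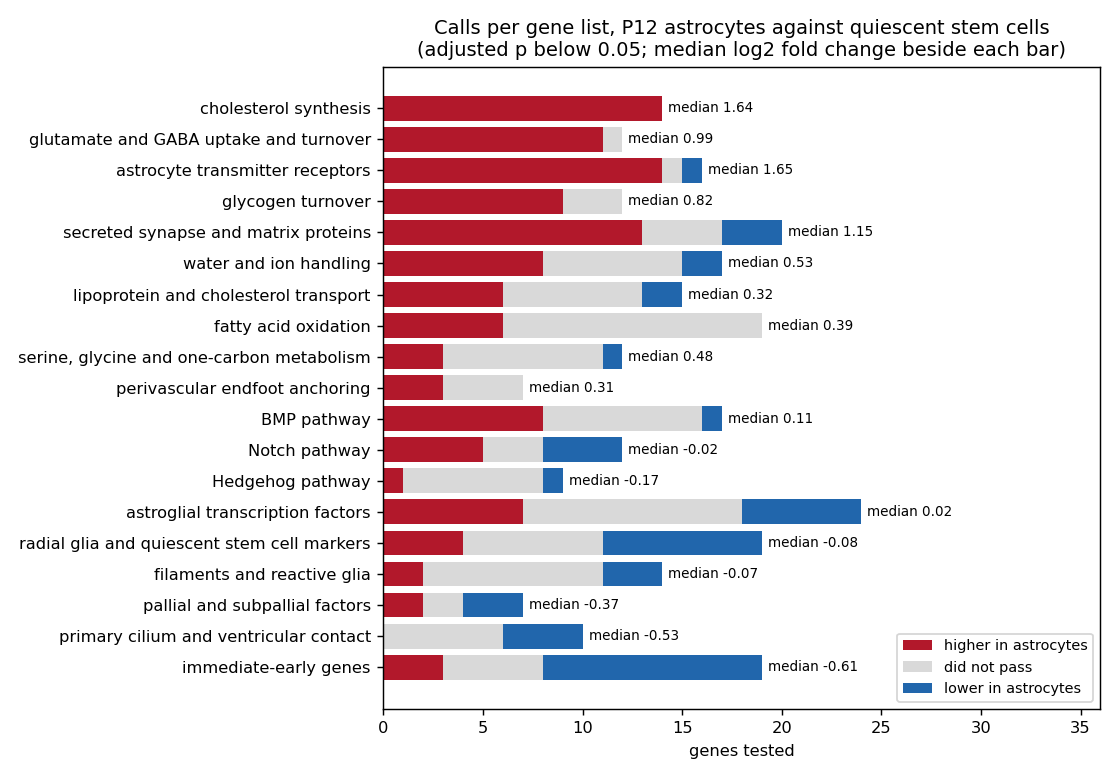
Genes tested in each of 19 lists (bar length), split into those higher in P12 astrocytes than in qNSCs (red), those that did not pass (grey) and those lower (blue), at an adjusted p below 0.05, with the median log2 fold change beside each bar. Cholesterol synthesis is red throughout, and the list of primary cilium and ventricular contact holds no red.

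Secreted proteins of the synapse and matrix were higher in 13 of 20 genes tested and lower in 3. Sparcl1, Sparc and Thbs4 were named after their values were seen. Sparcl1 (hevin), a synapse-promoting protein, stood at 5114 and 5405 CPM in astrocytes against 949.5 and 1472 CPM in qNSCs (log2 fold change 2.26, SE 0.18, adjusted p = 3.8e-35). Its relative Sparc, which opposes it at synapses, stood at 474 and 334 CPM in astrocytes against 1649 and 1378 CPM in qNSCs (log2 fold change -1.81, SE 0.16, adjusted p = 2.1e-26). Both pairs of libraries were separate, in opposite directions. Mertk, a receptor for engulfment of synapses, stood at 167 and 217 CPM in astrocytes against 26.7 and 41.2 CPM in qNSCs (log2 fold change 2.63, SE 0.19, adjusted p = 1.0e-39). Thrombospondins also promote synapses. Thbs4 stood at 131 and 128 CPM in astrocytes against 488 and 669 CPM in qNSCs (log2 fold change -2.05, SE 0.17, adjusted p = 6.2e-31), and Thbs1, which DESeq2 did not call, had 2 UMIs in astrocytes against 54 in qNSCs. Thbs2 had too few UMIs to be tested.

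On the qNSC side, Tfap2c, a transcription factor of basal progenitors, stood at 11.4 and 5.50 CPM in astrocytes against 96.7 and 149 CPM in qNSCs (log2 fold change -3.85, SE 0.33, adjusted p = 1.4e-29). Veph1, a membrane-binding protein, stood at 5.69 and 8.24 CPM in astrocytes against 85.1 and 133 CPM in qNSCs (log2 fold change -3.85, SE 0.34, adjusted p = 3.2e-27). Igf1, the growth factor, had 3 UMIs in astrocytes and 422 in qNSCs, a 35.8-fold lower level with a counting interval of 12.2 to 174. Pcdh15, a protocadherin, had 2 UMIs in astrocytes and 293 in qNSCs, a 37.3-fold lower level with an interval of 10.2 to 310. Map1b, a microtubule-associated protein, stood at 5.69 and 1.37 CPM in astrocytes against 80.6 and 64.0 CPM in qNSCs (log2 fold change -4.33, SE 0.44, adjusted p = 8.6e-21). All of these were separate between classes in both libraries. Of 4 tested genes of the Igf1 and Wfikkn2 expressing cells 3 were lower, Igf1, Jag1 and Wfikkn2, the last at 1.90 and 4.12 CPM in astrocytes against 34.5 and 48.0 CPM in qNSCs (log2 fold change -3.60, SE 0.52, adjusted p = 1.9e-10). The other genes among the 15 lowest were Uaca, Kif5c, Cntnap2, Bex1, Dbpht2, Dixdc1, Cacng5, Gm29260, Il17d and Rgs5, with log2 fold changes of -3.33 (Uaca) to -2.47 (Rgs5).

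The list of radial glia and qNSC markers did not move one way. Of 19 tested 8 were lower, 4 higher and 7 did not pass (median -0.08). Nes, the filament nestin of progenitors, stood at 26.6 and 22.0 CPM in astrocytes against 111 and 109 CPM in qNSCs (log2 fold change -2.08, SE 0.26, adjusted p = 2.8e-14). Vcam1, an adhesion molecule that is known to hold V-SVZ stem cells in place, was higher, at 444 and 475 CPM in astrocytes against 101 and 99.7 CPM in qNSCs (log2 fold change 2.30, SE 0.15, adjusted p = 6.0e-47). Fabp7, the fatty acid binding protein of radial glia, was higher too (1.72). Gfap, named after its values were seen, stood at 751 and 662 CPM in astrocytes and 795 and 825 CPM in qNSCs and did not pass (log2 fold change -0.09, SE 0.15, adjusted p = 0.72). Of the 14 filament and reactive glia genes tested, Serpina3n (2.97) and Cd44 (1.98) were higher, and Nes, Vim and H2-D1 lower. The share that was higher is near the 13.5% over all genes tested.

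Genes for the primary cilium and ventricular contact were lower in 4 of 10 tested and higher in none (median -0.53). The 4 were Vangl2, Celsr1, Dixdc1 and Rpgr. The cilium genes Arl13b, Ift88 and Ift20 were among the 6 that did not pass. Celsr1, a planar polarity cadherin, stood at 72.1 and 53.6 CPM in astrocytes against 143 and 203 CPM in qNSCs (log2 fold change -1.37, SE 0.20, adjusted p = 1.1e-10), and its partner Vangl2 had a log2 fold change of -1.31. Of 6 S phase genes tested, the replication helicase subunits Mcm6 (-2.12) and Mcm7 (-1.69) were lower and none was higher. Of 5 activated progenitor markers tested 3 were lower, among them Ccnd2 and Hmgb2, and none was higher. Genes of the deep quiescence score used by the study were lower in 6 of 9 tested and higher in 1, Id1 (1.14), with a median of -0.65. Genes of the astrocyte score it used were higher in 6 of 10 and lower in 1, Gm11627 (-0.81).

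Of 24 astroglial transcription factors, 7 were higher, 6 lower and 11 did not pass. Id2, an inhibitor of basic helix-loop-helix factors, stood at 2119.7 and 1579 CPM in astrocytes against 476 and 512 CPM in qNSCs (log2 fold change 2.00, SE 0.16, adjusted p = 1.6e-33), and Id3 had a log2 fold change of 1.64. Fezf2, a forebrain zinc finger factor, stood at 32.3 and 24.7 CPM in astrocytes against 148 and 121 CPM in qNSCs (log2 fold change -2.13, SE 0.24, adjusted p = 6.6e-17). Of 20 regional factors 7 were tested, of which 2 were higher, 3 lower and 2 did not pass (Emx2 and Lhx2). The pallial factors Emx1 (-1.91) and Pax6 (-0.91) and also Meis2 (-0.74) were lower. Six3, a ventral forebrain factor, was higher at 28.5 and 13.7 CPM in astrocytes against 7.27 and 3.69 CPM in qNSCs (log2 fold change 2.04, SE 0.50, adjusted p = 4.5e-04), as was Zic5 (0.92). The classes also differed in regional make-up, given below, and its part in these values was not tested.

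The BMP pathway, known to hold V-SVZ stem cells quiescent and to promote astrocyte fate, was higher in 8 of 17 genes tested and lower in 1. Among ligands Bmp7 stood at 32.3 and 19.2 CPM in astrocytes against 5.15 and 5.54 CPM in qNSCs (log2 fold change 2.39, SE 0.48, adjusted p = 9.7e-06). Among receptors Bmpr1b (0.78) and Acvr1 (1.30) were higher, and Bmpr1a stood at 140.4 and 203 CPM in astrocytes and 142 and 201 CPM in qNSCs and did not pass. The antagonist Nog stood at 36.1 and 22.0 CPM in astrocytes against 4.24 and 4.31 CPM in qNSCs (log2 fold change 2.88, SE 0.48, adjusted p = 5.5e-08), and the pseudoreceptor Bambi was the member that was lower (-1.27). The targets Id1, Id2, Id3 and Smad7 were higher.

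The Notch pathway was divided, with 5 of 12 genes higher and 4 lower. The receptor Notch3 stood at 49.3 and 72.8 CPM in astrocytes against 12.1 and 19.1 CPM in qNSCs (log2 fold change 2.08, SE 0.30, adjusted p = 2.0e-10), while Notch2 was lower (-0.77). The ligand Jag1 stood at 9.49 and 6.87 CPM in astrocytes against 22.7 and 41.9 CPM in qNSCs (log2 fold change -1.92, SE 0.45, adjusted p = 2.3e-04). Of the targets, Hey1 (1.95) was higher and Hes5 (-0.77) lower. In the Hedgehog pathway 1 of 9 genes was higher, Ptch1 (1.21), the receptor, and 1 lower, Cdon (-1.84), a coreceptor. Both shares are near those over all genes tested, 13.5% higher and 12.5% lower.

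Immediate-early genes, which respond to stimulation within minutes, were lower in 11 of 19 and higher in 3, Egr2 (1.74), Nr4a1 and Klf6, with a median of -0.61. Jund stood at 1279 and 511 CPM in astrocytes against 2716 and 1620.3 CPM in qNSCs (log2 fold change -1.26, SE 0.16, adjusted p = 5.8e-13). Zfp36, which destabilizes such transcripts, stood at 232 and 117 CPM in astrocytes against 577 and 504 CPM in qNSCs (log2 fold change -1.58, SE 0.16, adjusted p = 5.8e-20).

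Markers of other cell types were measured in the same sums. Of 12 oligodendroglial markers 5 had enough UMIs to be tested and 3 of these were higher, Olig2, Olig1 and Cnp, with a summed level of 332 and 375 CPM in astrocytes against 161 and 135 CPM in qNSCs. Olig2, a factor of the oligodendrocyte lineage and of a subset of astrocytes, stood at 36.1 and 68.7 CPM in astrocytes against 1.51 and 0 CPM in qNSCs (log2 fold change 5.60, SE 0.52, adjusted p = 2.1e-24). Sox10, absent by the gate, Pdgfra and Mog were at 0 in astrocytes of both libraries. Olig2 had a UMI in 20.5% and 38.5% of astrocytes and in 99.1% of the Sox10 and Pdgfra positive cells. Without the cells that held 10 or more oligodendroglial or 5 or more cilium UMIs, 1211 genes were higher and 1077 lower.

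Of 10 endothelial markers 5 were tested, and the summed level was 757 and 787 CPM in astrocytes against 424 and 741 CPM in qNSCs. The astrocyte sum came mainly from Slco1c1, a thyroid hormone and organic anion carrier that astrocytes also express, and Cldn5, Flt1, Ly6c1 and Esam were at 0 in both astrocyte sums. In qNSCs a single cell held up to 277 and 217 UMIs of the list, and 1 and 3 cells held 3 or more UMIs of Cldn5 and Flt1. Without these 1 and 3 cells Cldn5, Flt1 and Ly6c1 no longer had enough UMIs to be tested, Itm2a had a log2 fold change of -1.63 in place of -3.30, and 1383 genes were higher and 1248 lower. Of 12 ependymal markers the summed level was 120 and 97.6 CPM in astrocytes against 164 and 155 CPM in qNSCs. Neuronal markers summed to 34.2 and 34.3 CPM in astrocytes and 40.9 and 24.6 CPM in qNSCs. The member with enough UMIs to be tested, the synaptic adhesion gene Nrxn3, was higher at 19.0 and 26.1 CPM in astrocytes against 10.6 and 11.1 CPM in qNSCs (log2 fold change 1.15, SE 0.43, adjusted p = 0.033), and its sign was the opposite in the P22 library. Microglial markers summed to 51.2 and 57.7 CPM in astrocytes and 49.4 and 35.7 CPM in qNSCs. Fibroblast markers summed to 125 and 87.9 CPM in astrocytes and 91.5 and 71.4 CPM in qNSCs, and the list holds Serpinf1, while the defining members Dcn, Lum and Col3a1 were at 0 in both classes and libraries. Mural markers summed to 137 and 209 CPM in astrocytes and 210 and 215 CPM in qNSCs, with Notch3 higher and Rgs5 lower of 3 tested. Choroid plexus markers summed to 11.4 and 4.12 CPM in astrocytes and 6.67 and 4.31 CPM in qNSCs with Ttr at 0, and red blood cell markers to 11.4 and 5.50 CPM in astrocytes and 6.06 and 6.77 CPM in qNSCs.

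Ependymal cells also express Aqp4 and S100b, so the astrocytes were also set against the 654 and 584 P12 cells with Foxj1 x above 1 and no Sox10 or Mki67 UMI, in which ependymal markers summed to 860 and 1136 CPM. All 4 ungated markers were again higher in astrocytes, beside 12.3% of 12290 genes tested that were higher and 13.9% that were lower (1514 and 1704 genes). Agt stood at 55.0 and 34.3 CPM in astrocytes against 1.27 and 2.28 CPM in Foxj1 positive cells, and Hsd11b1 at 146 and 98.9 CPM in astrocytes against 2.97 and 2.91 CPM in Foxj1 positive cells. Serpinf1 stood at 85.4 and 55.0 CPM in astrocytes against 2.12 and 3.67 CPM in Foxj1 positive cells. All 14 cholesterol synthesis genes were higher against these cells too. Of the 12 ependymal markers, the 4 that were also tested against qNSCs were all lower, and the others were not counted. The 2 comparisons share the astrocyte sums.

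The thresholds cut through a continuous range of Aqp4. Cells just inside the astrocyte gate (Aqp4 x up to 0.25 above the threshold, 5 and 5 cells) had Hsd11b1 at 67.0 and 70.8 CPM and Agt at 67.0 and 88.5 CPM. Cells just outside it (Aqp4 x up to 0.25 below the threshold with S100b x above 0.5, 4 and 18 cells) had Hsd11b1 at 0 and 4.16 CPM and Agt at 0 and 4.16 CPM. The 4 cells of replicate 1 held a median of 9646 UMIs, so a count of 0 in them cannot be told from the level just inside. Slc1a2 showed no such step, at 4667 and 6707 CPM just inside against 5547 and 8333 CPM just outside. At the qNSC threshold the values lay close together: Lcat was at 7.45 and 14.8 CPM just inside (74 and 22 cells) and at 12.1 and 12.5 CPM just outside (96 and 37 cells). Among cells without Foxj1, Sox10 or Mki67 UMIs, Lcat stood at 151 and 140 CPM above an Aqp4 x of 2.5, against 5.97 and 7.19 CPM in cells without an Aqp4 UMI. Nes ran the other way, with 54.9 and 38.9 CPM above 2.5 against 129 and 179 CPM without Aqp4. These are descriptions of the selection, with no test.

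**Figure D4:**
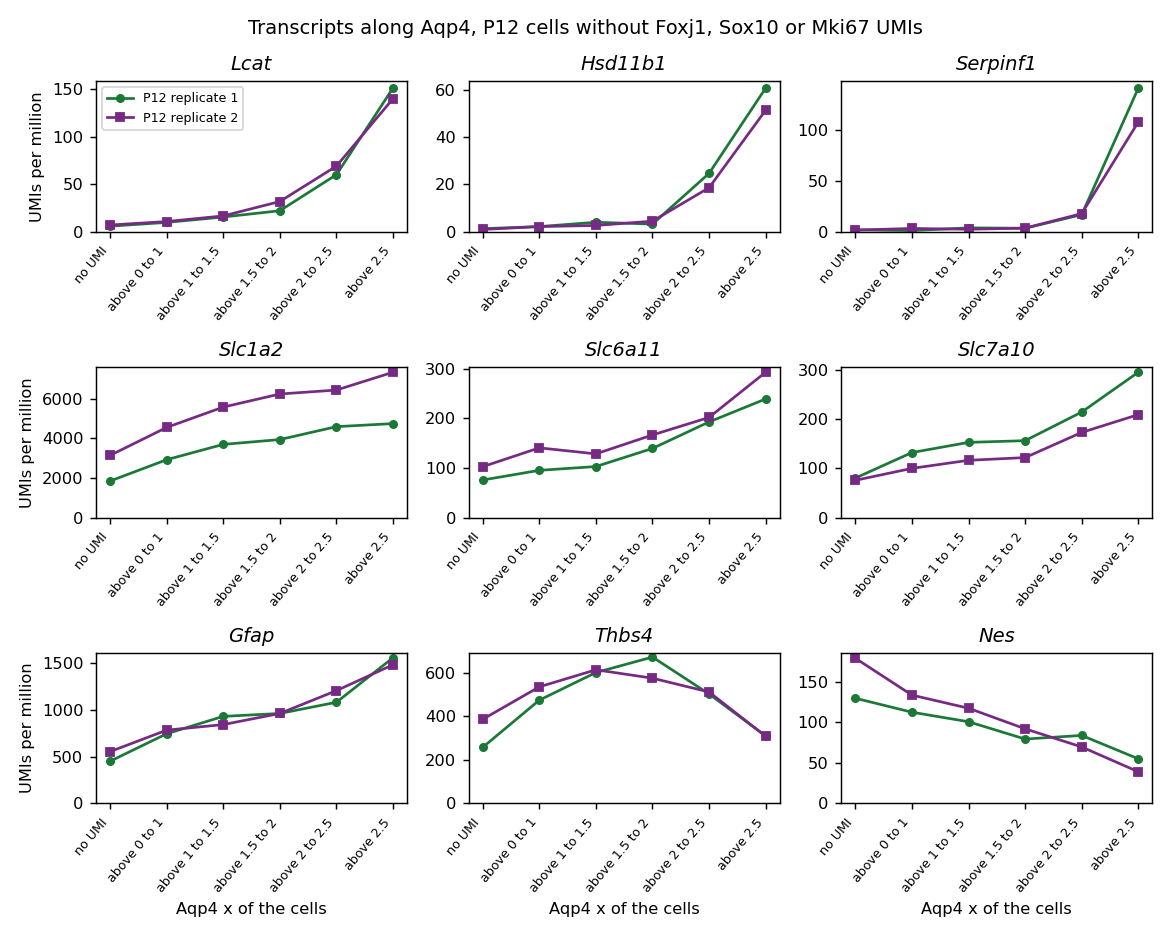
Summed level of 9 transcripts (CPM, linear axes from 0) in P12 cells without Foxj1, Sox10 or Mki67 UMIs, binned by Aqp4 x, 1 line per library. Lcat, Hsd11b1 and Serpinf1 stay low up to an Aqp4 x of 2 and are highest above 2.5, Thbs4 is highest between 1 and 2, and Nes is highest without Aqp4.

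S100b divided the Aqp4-high cells further. Cells with Aqp4 x above 2 and no S100b UMI numbered 258 and 380 and are not in the astrocyte class. Lcat stood at 165 and 122 CPM in astrocytes against 94.4 and 107 CPM in these cells, and Serpinf1 at 85.4 and 55.0 CPM in astrocytes against 77.8 and 73.3 CPM. Slc7a10 stood at 624 and 493 CPM in astrocytes against 184 and 147 CPM in the cells without S100b, and Igfbp2 at 192 and 199 CPM in astrocytes against 43.5 and 19.9 CPM in the others. Gfap was at 751 and 662 CPM in astrocytes against 1446 and 1477 CPM in the cells without S100b. S100b chose between these cells, and the values carry no test.

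Astrocytes were also divided by region. With the study's regional genes (pallial: Tbr1, Neurog2, Emx1, Neurod6 or Neurod1 with x above 0.25 and Gad1, Sp9, Gsx2, Dlx2, Dlx5 and Dlx6 all not above 0.25, and subpallial the reverse), 8 and 8 were pallial, 7 and 8 subpallial, and 29 and 35 had neither. Hopx stood at 764 and 794 CPM in pallial astrocytes against 324 and 380 CPM in subpallial ones, and Gfap at 746 and 1264 CPM in pallial astrocytes against 597 and 339 CPM in subpallial ones. With under 20 cells in each sum no test was run. By the same genes, 35.4% and 46.8% of qNSCs were pallial and 6.43% and 6.38% subpallial. Of astrocytes 18.2% and 15.4% were pallial and 15.9% and 15.4% subpallial. The part of region in the differences between astrocytes and qNSCs was not tested. Crym was at 0 in pallial astrocytes of both libraries, where a count of 0 allows up to 27.6 and 19.9 CPM (3 counts), at 0 and 6.79 CPM in subpallial astrocytes, and at 78.2 and 12.1 CPM in astrocytes with neither set. The order of the classes was not the same in both libraries for Lcat (82.9 and 172 CPM in pallial against 212 and 54.3 CPM in subpallial astrocytes) or for Serpinf1 (73.7 and 132 CPM in pallial against 111 and 13.6 CPM in subpallial astrocytes).

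Astrocytes made up 0.628% of P12 replicate 1 cells (exact Clopper-Pearson 95% interval 0.457% to 0.842%) and 1.13% of replicate 2 cells (0.846% to 1.48%). At P2 the gate found 2 astrocytes among 4027 cells (0.0497%, interval 0.00602% to 0.179%), and at P22 it found 29 among 4231 (0.685%, interval 0.460% to 0.983%). The qNSC share was 4.88% and 3.07% at P12, 1.19% at P2 and 1.84% at P22. With 1 library each at P2 and P22 there is no test between ages. The intervals cover counting error only, and dissection and sorting can set such shares. They also depend on detection of the gate transcripts and are not shares of the tissue. With cells thinned to 5000 UMIs, S100b had a UMI in 47.6% and 66% of P12 astrocytes. The study, which grouped cells by clustering, gave larger shares of both classes at P12.

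The P22 library took no part in the P12 test. Of the genes at least 2-fold higher at P12, 664 of 756 had the same sign within P22, and of those at least 2-fold lower 519 of 580. The share over all genes tested was not counted. Neuronal markers summed to 1220 CPM in P22 qNSCs, against 40.9 and 24.6 CPM in P12 qNSCs. Activated progenitor markers summed to 1692 CPM in P22 qNSCs, against 763 and 672 CPM in P12 qNSCs. The part of these markers in the P22 values was not tested. At P22 Agt stood at 128 CPM in astrocytes and 0 in qNSCs, and Hsd11b1 at 256 CPM in astrocytes against 7.23 CPM in qNSCs. In P22 Foxj1 positive cells Agt stood at 55.0 CPM (22 UMIs), against 1.27 and 2.28 CPM in those of P12. Timp4 stood at 539.7 CPM in P22 astrocytes against 8.68 CPM in qNSCs, and Ntsr2 at 2153 CPM in P22 astrocytes against 322 CPM in qNSCs. The P22 astrocyte levels of Agt, Hsd11b1, Timp4 and Ntsr2 were above those of either P12 astrocyte library. Serpinf1, by contrast, stood at 2.98 CPM in P22 astrocytes, 1 UMI, against 85.4 and 55.0 CPM in the P12 astrocytes, and Igfbp2 was at 0 in P22 astrocytes against 192 and 199 CPM at P12. In P22 astrocytes a count of 0 allows up to 8.95 CPM (3 counts). At least 1 of the 4 ungated markers had a UMI in 27 of 29 P22 astrocytes (93.1%) and in 9 of 78 P22 qNSCs (11.5%). Only 2 cells at P2 met the gate, and a count of 0 there allows up to 139 CPM (3 counts), so no level is given for that age.

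**Figure D5:**
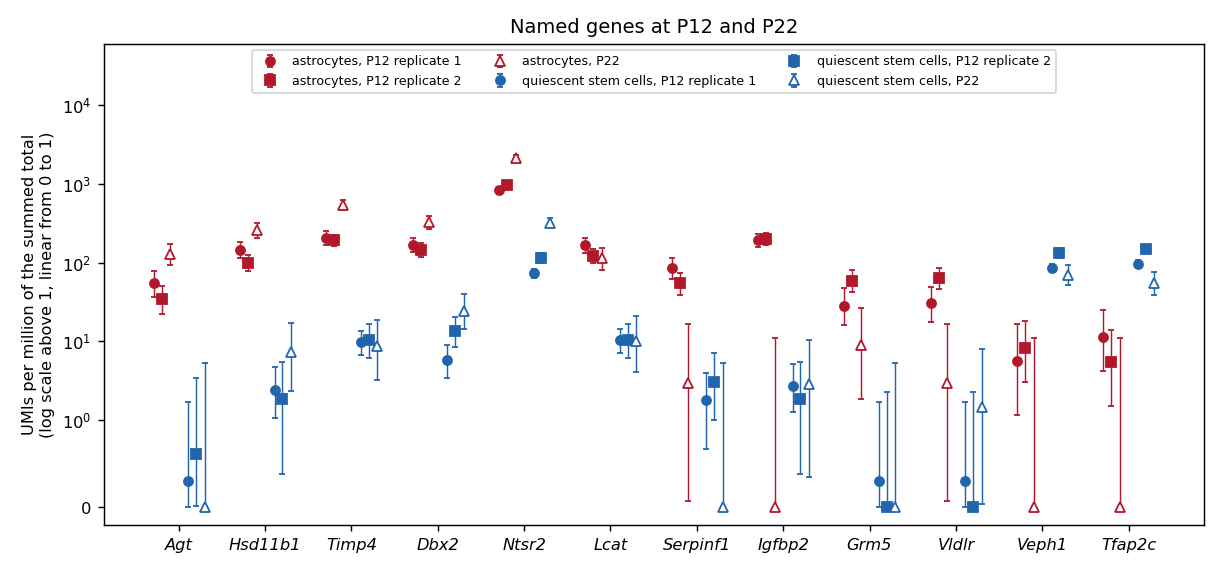
Level of 12 named transcripts in astrocytes (red, left of each pair) and qNSCs (blue, right) of the P12 libraries (filled) and the P22 library (open), in CPM on a log scale above 1 and a linear one below, with exact 95% Poisson intervals. Agt, Hsd11b1, Timp4, Dbx2 and Ntsr2 are higher in P22 astrocytes than in either P12 astrocyte sum, while Serpinf1 and Igfbp2 are at 2.98 and 0 CPM at P22.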

How the data were processed

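Matrices of UMI counts per gene and cell were deposited by the authors, made with Cell Ranger (3.1.0 in the P12 matrix headers, 5.0.1 in those of P2 and P22) on mm10. They hold raw counts with no normalization, for 31053 genes. Cells with 2000 to 8000 genes and under 10% mitochondrial UMIs were kept, 7006 of 8617 and 4596 of 6400 barcodes at P12. Doublets were not removed in the main analysis, since Scrublet (scanpy 1.11.5) marked 1.60% and 0.087% of cells.

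UMIs were summed per library and class, with at least 20 cells per sum. The sums were fitted with edgeR 4.0.16 (TMM, filterByExpr, quasi-likelihood test, Benjamini-Hochberg adjustment, threshold 0.05) in R 4.3.3. Library entered as a block, because both classes come from the same libraries and mice. CPM is given without the TMM factor, and fold changes with it. The SE is the absolute log2 fold change divided by the square root of the F statistic. Fold changes within 1 library are log2 ratios of CPM with a prior count of 1. The p-values rest on how far the class difference varied between 2 libraries, with 1 residual degree of freedom and a variance estimate shared across genes. They do not measure the spread of a single gene between mice. The P12 libraries come from 2 independent experiments according to the methods. The code was tested on simulated data. Alternatives were DESeq2 1.42.0, no block, no count filter, other cell filters and gates, thinned cells and left-out libraries. Poisson and Clopper-Pearson intervals are at 95%, and a count of 0 was given a floor of 3 counts.

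Genes were named by a rule: the 15 highest and 15 lowest log2 fold changes among genes with an adjusted p below 0.05, at least 50 CPM in the higher class and a log2 fold change beyond 0.5 in both replicates, the given markers, and up to 4 called members of each list. List members outside the rule were chosen after their values were seen. The members and lists were chosen with earlier results of these data known. Results of some list members are not reported here.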

Additional observations from a re-analysis of the deposited data

Results flagged for a closer look

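In 5 named genes the log2 fold change of astrocytes over qNSCs within the P22 library had the opposite sign to that within both P12 libraries, a difference that was not tested. Igfbp2 was at -1.28 within P22, where astrocytes held 0 UMIs and qNSCs 2, against 5.94 and 6.27 within the P12 replicates. Nrxn3 was at -4.26 within P22, against 0.86 and 1.23. Zic5 was at -0.44 within P22, against 1.28 and 0.40. Dbpht2 was at 0.13 within P22, where astrocytes held 1 UMI and qNSCs 2, against -3.27 and -2.18. With so few UMIs the sign at P22 is not settled for Igfbp2 or Dbpht2. H2-D1 was at 0.76 within P22, against -1.65 and -0.78. The P22 library is 1 library with 29 astrocytes, in which a count of 0 allows up to 8.95 CPM (3 counts). Neuronal markers, of which Nrxn3 is a member, summed to 119 CPM in P22 astrocytes and 1220 CPM in P22 qNSCs, and their part in these values was not tested.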

How the results depend on the processing

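Against qNSCs, where 1348 genes were higher and 1244 lower, DESeq2 called 440 and 241, the fit without the replicate block 681 and 475, thinned cells 710 and 555, and cells gated on a random 0.5 of their UMIs gave 683 lower genes. With 1 P12 library left out and P22 added, 700 to 817 genes were higher and 521 to 725 lower. Against Foxj1 positive cells (1514 and 1704), DESeq2 called 584 and 486 and the fit without the replicate block 683 and 625. The remaining settings stayed within 1.5 times both counts. Of the 118 named genes, 29 lost their call with DESeq2 and 11 without the block, and none changed sign within either P12 library. The value within the library that remained lay more than 1 SE from the fit in 65 without replicate 1 and in 51 without replicate 2. That value was a log2 ratio of CPM with a prior count of 1, not an edgeR fit. Its distance from the fit mixes the change of estimate with the loss of a library. Nrxn3 changed sign with P22 added, at -0.60 with all 3 libraries and at -1.15 and -1.79 with P12 replicate 1 or 2 left out. The astrocyte share at P12 was 0.385% and 0.783% with Aqp4 x above 2.5, and 0.343% and 0.696% without a UMI of Tmem212, Ccdc153, Dynlrb2 or Rarres2, and at P22 it was 0.355% and 0.0473% under these gates. The alternatives in which P22 was added or cells with other markers were left out were chosen after seeing the data. The cause of these changes was not tested.

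The fit over all 4 libraries was not run, because P2 held 2 astrocytes, nor was a test of pallial against subpallial astrocytes. Without a P12 library the comparison has no residual degree of freedom and gives values only. Astrocyte sums of 526970 and 727813 UMIs put the floor of a count of 0 at 5.69 and 4.12 CPM, so absence of a low gene from astrocytes cannot be told at this depth. The classes rest on a few transcripts each, and 8 genes that set them carry no test.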
